A study of Mus musculus with 18 samples.

Results

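Heat shock chaperones are proteins that bind unfolded or newly made polypeptides, keep them from aggregating and help them fold. When unfolded protein builds up, heat shock factor 1 (Hsf1) is released from chaperones and binds heat shock elements in DNA, which are inverted repeats of the letters GAA. It switches on the inducible members of the family, while the constitutive members are made in unstressed cells as well. In microglia, the resident macrophages of the brain, inducible chaperone transcripts are known to appear together with immediate early genes when tissue is taken apart to purify the cells. The 10 genes described here were named as a set, of 55414 gene identifiers counted. Of these, 6 are inducible. Hspa1a and Hspa1b encode the stress-inducible HSP70, and Hspb1 the small heat shock protein HSP27. Dnajb1 encodes an HSP40 that delivers substrates to HSP70, Hsph1 the nucleotide exchange factor HSP110 and Hsp90aa1 the inducible cytosolic HSP90. Hspa8 encodes the constitutive HSC70 and Hsp90ab1 the constitutive HSP90. Hspd1 and Hspe1 encode HSP60 and HSP10, the chaperonin of the mitochondrial matrix and its lid.

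RNA of microglia purified from mouse brain was sequenced in bulk by MARS-seq, which counts polyadenylated 3' ends with unique molecular identifiers (UMIs, random tags that mark single molecules before amplification). There were 5 libraries of male Chd8 knockout (KO) mice, 5 of male wild type (WT), 4 of female KO and 4 of female WT. CHD8 is a chromatin remodeler. The sample titles share the prefix HX, which the labels do not explain. Nor do the labels give the age or strain of the mice, the deleted exons, the number of altered copies or the cells in which the gene was altered. It is also not stated whether the libraries of a group came from separate animals or litters, so the p-values measure the spread between these libraries only, which may be technical.

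The libraries held 435838 to 9149144 UMIs each. Sequenced reads per UMI formed 3 ranges that do not touch, with 1.79 to 1.89 reads in 8 libraries, 2.94 to 3.12 in 6 and 5.52 to 7.26 in 4. These ranges were spread unevenly over the groups. The lowest range held 4 male KO, 3 male WT and 1 female KO library. The middle range held 1 male KO, 2 male WT, 2 female KO and 1 female WT library, and the highest range held 1 female KO and 3 female WT libraries and no male one. What the ranges stand for is not stated in the labels. Values within a range are given for most of the 10 genes and for many named genes of the wider lists. As UMIs scaled to a common library size (CPM), Chd8 lay between 96.4 and 116 in male KO against 135 and 167 in male WT libraries. It lay between 116 and 139 CPM in female KO against 132 and 186 CPM in female WT libraries. A 3' tag does not show whether an upstream exon is deleted. All 10 microglial markers examined, among them Cx3cr1, P2ry12 and Tmem119, were detected in every group, with summed levels between 25751 and 35449 CPM. Single markers were not even over the groups. Cx3cr1 stood at 919 to 1700 CPM in male KO against 2407 to 3543 CPM in male WT libraries. Fcrls and Olfml3 were also wholly lower in male KO, Sall1 was wholly higher, and the other markers overlapped. Over all genes tested, 5.27% lay wholly above and 4.58% wholly below in male KO. Olfml3 was also wholly lower in female KO than in female WT libraries. In bulk RNA, fewer cells of a type and less RNA per cell cannot be told apart.

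Hspa1a (chr17:34969190-34972156, minus strand, GRCm38) and Hspa1b (chr17:34956436-34959238, minus strand) are neighbouring copies, each with its own promoter. Their RefSeq promoter windows, which run from 250 bases before to 50 bases after the annotated start, were identical at 296 of 300 bases. Although the copies shared 58.8% of the 50-base words of the Hspa1a transcript, none of the words in the last 500 bases of either GENCODE transcript occurred in the other, so 3' tags can separate them. Hspb1 lies at chr5:135887919-135889563 on the plus strand. Hspd1 (chr1:55077835-55088243, minus strand) and Hspe1 (chr1:55088132-55091307, plus strand) are transcribed away from each other, overlap at their 5' ends, and 285 bases of their promoter windows are the same stretch of DNA. RefSeq windows were found for 7 of the 10 genes, which leaves out Hspa8, Hsp90aa1 and Hsp90ab1. These windows were searched for pairs of heat shock units, GAANNTTC and TTCNNGAA, where N is any base. They were also searched for runs of 3 units, GAANNTTCNNGAA and TTCNNGAANNTTC. Each pair is its own reverse complement and the runs are each other's, so both strands were covered, and every run holds pairs. A pair was found in windows of 6 of the 7 genes and a run of 3 in 3 of them, Hspd1, Hspe1 and Hsph1. Of all 32851 windows, 15.1% held a pair and 0.603% a run. These shares count windows, and some genes had 2, so the counts of genes cannot be set against them directly. Nor are the genes independent, with the near-identical Hspa1a and Hspa1b windows and 1 site shared by Hspd1 and Hspe1. The Hsph1 run lay after its 2 starts, at 36 to 48 and at 15 to 27, in annotated exons. The Hspd1 window at chr1:55088194-55088493 held no pair. Neither Dnajb1 window held a pair, which says only that these letters are not in those windows. The stretches around the matches upstream of the inducible pair, of Hspb1 and between the mitochondrial pair are shown because these genes carry the comparisons that follow. They are given 5' to 3' on the strand of the gene, from RefSeq on GRCm38.p6, and capitals mark the heat shock units.
Hspa1a, chr17:34972243-34972270, minus strand: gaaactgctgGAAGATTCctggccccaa
Hspa1b, chr17:34959325-34959352, minus strand: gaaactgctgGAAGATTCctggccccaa
Hspb1, chr5:135887792-135887819, plus strand: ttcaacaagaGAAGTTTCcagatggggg
Hspb1, chr5:135887812-135887839, plus strand: gatgggggcaGAACCTTCctggccccgc
Hspd1, chr1:55088054-55088081, minus strand: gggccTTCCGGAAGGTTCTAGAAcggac
Hspe1, chr1:55088054-55088081, plus strand: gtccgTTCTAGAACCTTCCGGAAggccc
Counted from the start, the Hspa1a and Hspa1b pairs stood at -104 to -97 and those of Hspb1 at -117 to -110 and -97 to -90. None of these lay in an annotated transcript of the 10 genes, and transcripts of other genes were not checked. The last 2 lines are the 2 strands of 1 site, a single unbroken run of 4 units, or 18 bases. It stood at -144 to -127 from an Hspd1 start and at -89 to -72 from the Hspe1 start. It lay inside the annotated Hspd1 gene, in an exon of 1 of the 2 transcripts that span it. A match of letters describes the window and does not show that a factor was bound.

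The inducible HSP70 genes varied widely. Hspa1a stood at 135, 194, 267, 588 and 605 CPM in male KO and 164, 166, 295, 333 and 552 CPM in male WT libraries. Female levels were 78.0, 97.9, 107 and 113 CPM in KO and 24.8, 30.3, 44.8 and 51.2 CPM in WT libraries. Every male library was above every female one, the female KO libraries were all above the female WT ones, and the male KO and WT libraries overlapped over most of their range. Hspa1b stood at 181, 240.5, 321, 753 and 864 CPM in male KO and 141, 149.7, 248, 282 and 477 CPM in male WT libraries. The female libraries held 38.6, 61.7, 89.6 and 134 CPM in KO and 13.9, 15.2, 15.7 and 44.8 CPM in WT libraries. Here too every male library was above every female one, but the lowest female KO library was under the highest female WT library, replicate 39. The spread within a group was wide, with an SD of 62.3% of the mean in male KO and 52.7% in male WT for Hspa1a, against 15.5% in female KO and 32.6% in female WT.

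Hspb1 followed the same order of groups at lower counts. It stood at 23.6, 35.3, 39.7, 40.4 and 66.4 CPM in male KO and 15.9, 20.1, 21.02, 33.9 and 39.0 CPM in male WT libraries. It stood in females at 11.4, 16.0, 24.7 and 33.5 CPM in KO and 0, 3.93, 4.65 and 7.20 CPM in WT libraries. All 4 female WT libraries lay under every other library, on 0 to 9 UMIs each; in the library with none, replicate 34, a count of 0 allows a level of up to 6.72 CPM. Dnajb1 (chr8:83608193-83612653, plus strand) stood at 69.4, 112, 115, 119.9 and 147 CPM in male KO and 71.1, 85.8, 104, 118 and 129 CPM in male WT libraries. In females it stood at 41.2, 65.1, 79.8 and 89.2 CPM in KO and 41.0, 43.3, 47.0 and 53.6 CPM in WT libraries. The male WT libraries were all above the female WT ones, while KO and WT overlapped in each sex, as did male KO and female KO.

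The remaining inducible genes did not share this order. Hsph1 (chr5:149614287-149636376, minus strand) ranged over 27.3 to 104 CPM in male KO and 17.5 to 53.6 CPM in male WT libraries. Female levels were 33.5 to 48.9 CPM in KO and 25.6 to 38.8 CPM in WT libraries, and all 4 groups overlapped. Hsp90aa1 (chr12:110690605-110702728, minus strand) ran the other way, at 23.3 to 47.4 CPM in male KO and 19.8 to 44.0 CPM in male WT libraries. The female libraries held 45.1 to 94.8 CPM in KO and 45.6 to 69.4 CPM in WT libraries. Every male WT library was under every female WT one for Hsp90aa1, while the highest male KO library, replicate 6, was above the lowest female KO library. Male KO replicate 6 was the highest of its group for all 10 genes, constitutive ones included, and male KO replicate 17 the lowest for 7 of them.

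**Figure D1:**
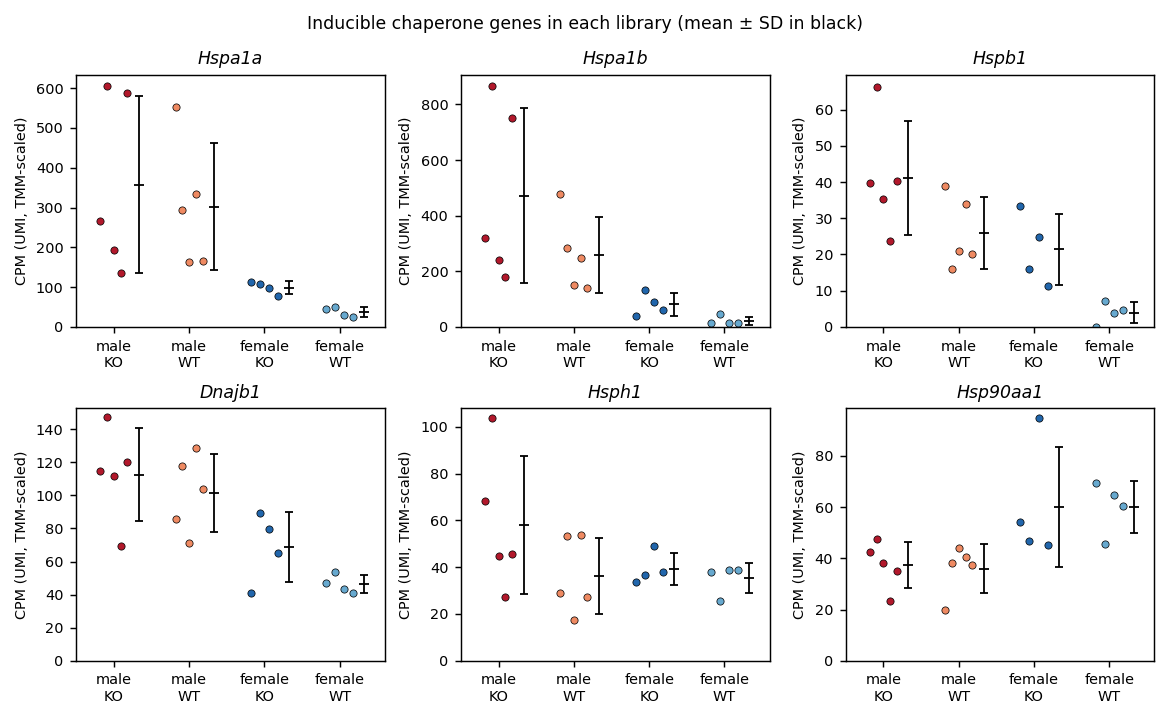
Levels in CPM (UMI counts scaled by TMM) of the 6 inducible chaperone genes, 1 point per library, with the group mean and SD in black; 5 male KO, 5 male WT, 4 female KO and 4 female WT libraries. For Hspa1a and Hspa1b all male libraries lie above all female ones, Hspb1 is lowest in the female WT libraries at 0 to 7.20 CPM, and Hsp90aa1 lies at 19.8 to 47.4 CPM in male and 45.1 to 94.8 CPM in female libraries.

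Among the constitutive and mitochondrial chaperones the differences were small beside those of HSP70. Hspa8 (chr9:40800984-40810087, plus strand) stood at 711, 752, 821, 896 and 967 CPM in male KO and 669, 693, 764, 793 and 1033 CPM in male WT libraries. It stood in females at 719, 813, 1098 and 2035 CPM in KO and 951, 1141, 1558 and 1589 CPM in WT libraries. Its highest value came from female KO replicate 33, the shallowest library, and all neighbouring groups overlapped. Hsp90ab1 (chr17:45567775-45573271, minus strand) differed little between the 4 groups, with means of 891 ± 196 CPM in male KO, 863 ± 77.1 CPM in male WT (SD, n = 5 each), 877 ± 162 CPM in female KO and 936 ± 165 CPM in female WT (SD, n = 4 each).

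Hspe1 stood at 121, 131, 159, 166 and 175 CPM in male KO and 109, 119, 120.1, 121 and 149 CPM in male WT libraries. In females it stood at 149, 177, 198 and 198 CPM in KO and 190.5, 203, 228 and 231 CPM in WT libraries. It was lowest in male WT and highest in female WT, with no overlap between these groups. Hspd1, its partner across the shared promoter region, averaged 65.3 ± 8.14 CPM in male KO, 56.3 ± 8.59 CPM in male WT (SD, n = 5 each), 52.0 ± 4.09 CPM in female KO and 51.9 ± 12.9 CPM in female WT (SD, n = 4 each), and its 4 groups overlapped.

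**Figure D2:**
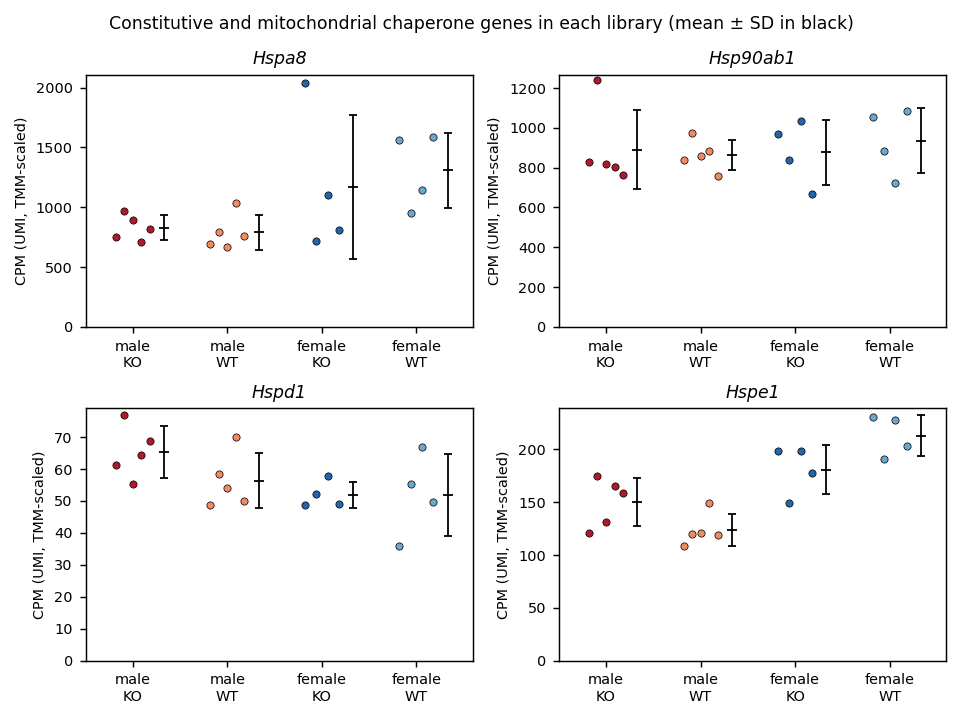
Levels in CPM of the constitutive cytosolic genes Hspa8 and Hsp90ab1 and of the mitochondrial pair Hspd1 and Hspe1, 1 point per library, with the group mean and SD in black. Hspe1 is lower in the male WT libraries (109 to 149 CPM) than in the female WT ones (190.5 to 231 CPM), and Hsp90ab1 means lie between 863 and 936 CPM in all 4 groups.

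The KO was first set against WT in females. Hspb1 was higher in the 4 female KO libraries, at 21.4 ± 9.77 CPM against 3.95 ± 2.98 CPM in female WT (SD, n = 4 each). Its log2 fold change was 1.99 ± 0.52 (SE), the only one of the 10 genes called by edgeR (quasi-likelihood, adjusted p = 0.0397 over 10948 genes). Of all genes tested, 0.849% were called higher and 1.83% lower. The inducible HSP70 genes had log2 fold changes of 1.41 ± 0.49 for Hspa1a (edgeR adjusted p = 0.134) and 1.92 ± 0.58 for Hspa1b (edgeR adjusted p = 0.0832), and Dnajb1 one of 0.66 ± 0.24 (edgeR adjusted p = 0.151); none of these was called. Female KO libraries lay wholly above female WT ones for 2 genes, Hspa1a and Hspb1, a pattern seen in 2.48% of all genes, and for no gene wholly below, as 2.84% of all genes were. Hsph1 had a log2 fold change of 0.18 ± 0.38 (edgeR adjusted p = 0.877) and Hsp90aa1 one of 0.02 ± 0.27 (edgeR adjusted p = 0.987). The 6 inducible genes thus ran from 0.02 to 1.99, with a median of 1.04 that counts the copies Hspa1a and Hspa1b separately. The medians were -0.14 for the 2 constitutive genes and -0.15 for the 2 mitochondrial ones, beside 0.01 over all genes tested.

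The Hspb1 call in females depended on single libraries and on the range of reads per UMI. With edgeR its adjusted p was 0.0721 without female KO replicate 16, 0.100 without female KO replicate 1, 0.0853 without female WT replicate 34, 0.103 without female WT replicate 31 and 0.118 without female WT replicate 30. With the range as a covariate in edgeR, the log2 fold changes were 2.17 ± 0.71 for Hspb1 (adjusted p = 0.130), 1.18 ± 0.60 for Hspa1a, 0.92 ± 0.66 for Hspa1b and 0.37 ± 0.31 for Dnajb1. Within the highest range, 1 female KO library against 3 female WT libraries differed in mean log2 CPM by 3.72 for Hspb1, 1.79 for Hspa1a, 1.33 for Hspa1b and -0.08 for Dnajb1. That female KO library, replicate 33, was the shallowest, with 13 UMIs of Hspb1 and 15 of Hspa1b. Within the middle range, 2 female KO libraries against 1 female WT library differed by 1.15, 0.76, 0.72 and 0.42 for the same genes. The higher Hspb1 and HSP70 values were present in both ranges, with no replicate in 1 arm of each. Leaving out female KO replicate 33 brought Hspa1b to an edgeR adjusted p of 0.0491, and leaving out female WT replicate 39 to 0.0489, with a log2 fold change of 2.55.

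In males edgeR called no member, and DESeq2 also called 0. Of all genes tested, 3.37% were called higher and 2.87% lower in male KO. Hspa1b had a log2 fold change of 0.86 ± 0.40 (edgeR adjusted p = 0.246), with 472 ± 314 CPM in male KO and 259 ± 136 CPM in male WT (SD, n = 5 each). The value was 0.65 ± 0.27 for Hspb1 (edgeR adjusted p = 0.204), 0.66 ± 0.29 for Hsph1 (edgeR adjusted p = 0.216) and 0.28 ± 0.12 for Hspe1 (edgeR adjusted p = 0.201). Hspa1a, the other HSP70 copy, had only 0.25 ± 0.35 (edgeR adjusted p = 0.805), and Hsp90aa1, Hspa8 and Hsp90ab1 lay between 0.05 and 0.07. All 10 estimates were above 0, but for no gene were the male KO libraries wholly above or below the male WT ones (5.27% and 4.58% of all genes). Without male KO replicate 6 the estimates of Hspa1a, Hsp90aa1 and Hsp90ab1 were -0.02, -0.04 and -0.10. Without male KO replicate 40 that of Hspa1a was -0.0051, and without male WT replicate 13 that of Hsp90aa1 was -0.09.

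Within the lowest range of reads per UMI, 4 male KO against 3 male WT libraries differed in mean log2 CPM by 0.69 for Hspa1b, 0.74 for Hspb1, 0.85 for Hsph1 and 0.17 for Hspa1a. In the middle range, 1 male KO against 2 male WT libraries, the differences were 0.36, 0.43, 0.22 and -0.28. For Hspe1 the difference was 0.40 in the lowest range and -0.02 in the middle one.

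The KO effect did not differ between the sexes past the threshold for any member (edgeR, with 0.237% of all genes called), and DESeq2 called 0 members. The female effect minus the male effect was 1.35 ± 0.60 on the log2 scale for Hspb1 (edgeR adjusted p = 0.509, 95% interval 0.17 to 2.52) and 1.16 ± 0.60 for Hspa1a (edgeR adjusted p = 0.616, 95% interval -0.01 to 2.34). For Hspe1 it was -0.53 ± 0.18 (edgeR adjusted p = 0.364), with a female KO estimate of -0.25 ± 0.14 and a male one of 0.28. The calls for Hspb1 in females and for no gene in males are therefore not shown to differ.

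**Figure D3:**
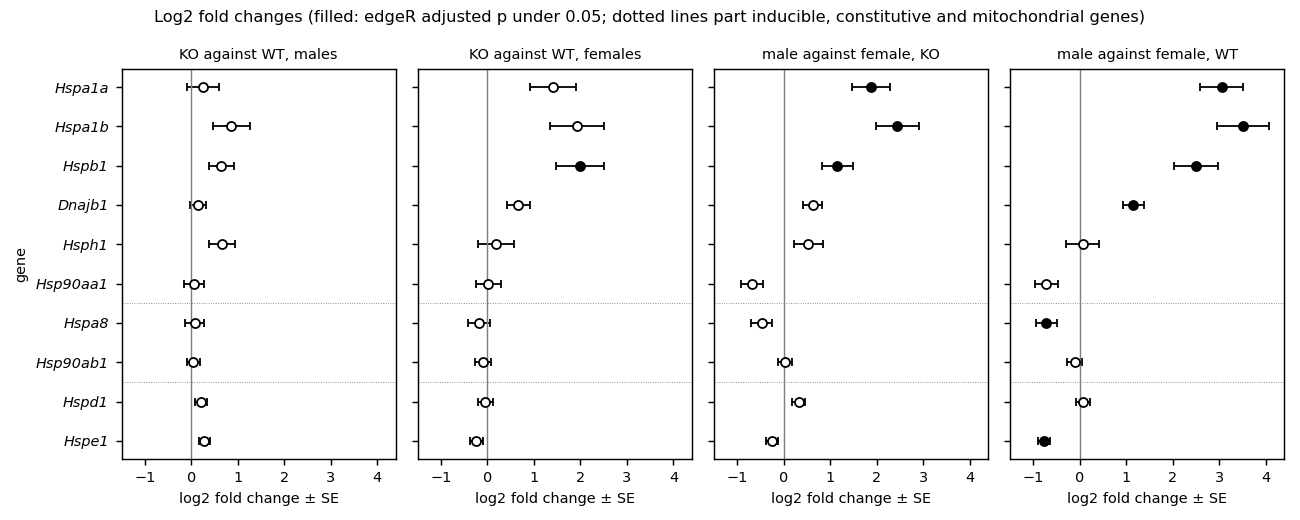
Log2 fold changes with SE from the edgeR fit for the 10 genes, KO against WT in males and in females, and male against female in KO and in WT; filled points have an adjusted p under 0.05. Filled points are Hspb1 in the female KO comparison, 3 inducible genes in the male against female comparison of KO, and 6 genes in that of WT.

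More members were called between the sexes than between the genotypes. In WT, 4 of the 6 inducible genes were higher in males and 1 constitutive and 1 mitochondrial gene were lower, where 6.94% of all genes tested were called higher and 10.3% lower. Hspa1a had a log2 fold change of 3.05 ± 0.47 (edgeR adjusted p = 0.000139), with 302 ± 159 CPM in male WT (SD, n = 5) and 37.8 ± 12.3 CPM in female WT (SD, n = 4). Hspa1b reached 3.50 ± 0.56 (edgeR adjusted p = 0.000214), Hspb1 2.50 ± 0.47 (edgeR adjusted p = 0.00101) and Dnajb1 1.15 ± 0.22 (edgeR adjusted p = 0.00144). Lower in males were Hspa8, with a log2 fold change of -0.73 ± 0.23 (edgeR adjusted p = 0.0312), and Hspe1, with one of -0.78 ± 0.13 (edgeR adjusted p = 0.000343). Hsp90aa1, the inducible HSP90, had -0.72 ± 0.25 (edgeR adjusted p = 0.0506) and was not called, although every male WT library was under every female WT one. It was called by DESeq2 (adjusted p = 0.0369) and by edgeR fitted to the WT libraries alone (adjusted p = 0.0186). In all, 4 genes lay wholly above (8.81% of all genes) and 2 wholly below (9.41% of all genes), while Hsph1, Hsp90ab1 and Hspd1 had log2 fold changes between -0.11 and 0.06.

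Among KO libraries 3 of the inducible genes were higher in males. Hspa1a was higher in male KO, with a log2 fold change of 1.88 ± 0.41 (edgeR adjusted p = 0.00849), Hspa1b with 2.45 ± 0.47 (edgeR adjusted p = 0.00374) and Hspb1 with 1.16 ± 0.33 (edgeR adjusted p = 0.0365); 2.83% of all genes were called higher and 4.27% lower. No member was called lower, with -0.69 ± 0.24 for Hsp90aa1 (edgeR adjusted p = 0.0811) and -0.48 ± 0.23 for Hspa8 (edgeR adjusted p = 0.204). DESeq2 also called Dnajb1 higher (0.65 ± 0.22, adjusted p = 0.0358). Male KO libraries were wholly above female KO ones for 2 genes, Hspa1a and Hspa1b (4.69% of all genes), and wholly below for none (4.53% of all genes). Hspb1 was no longer called in edgeR without female KO replicate 16 (adjusted p = 0.0529) or 7 (0.176) or without male KO replicate 36 (0.0540), 6 (0.0913) or 40 (0.0671), and Hspa1a without female KO replicate 7 (0.0524). Without female KO replicate 16, edgeR also called Hspa8 (adjusted p = 0.0492) and Hsp90aa1 (0.0315) lower and Dnajb1 (0.0224) higher, and Dnajb1 was called without male KO replicate 17 (0.0226) as well.

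Sums of markers of some other cell types also differed between the sexes, in KO, in WT or in both. Among KO libraries the sum of 8 oligodendrocyte lineage markers was 302 to 874 CPM in males (Pdgfra at 0) against 202 to 260 CPM in females (Pdgfra at 0). That of 8 astrocyte markers was 283 to 587 CPM in male KO against 78.0 to 268 CPM in female KO (Aqp4 at 0), and that of 8 neuron markers overlapped, at 69.9 to 330 CPM in male KO and 27.7 to 85.95 CPM in female KO (Gad1 at 0). Among WT libraries the sum of 8 markers of border-associated macrophages was 29.97 to 57.8 CPM in males against 136 to 299 CPM in females. In KO this sum overlapped, at 157 to 251 CPM in males and 158 to 271 CPM in females. The WT oligodendrocyte sum was 173 to 228 CPM in males (Mog at 0). In females it overlapped, at 173 to 303 CPM (Pdgfra and Mog at 0). So did the WT astrocyte sum, at 141 to 199 CPM in males and 52.5 to 162 CPM in females (Gja1 at 0 in both). The WT neuron sum overlapped too, at 13.2 to 37.8 CPM in males and 28.8 to 116 CPM in females (Gad1 at 0). Neutrophil and monocyte markers, lower in males of both genotypes, are given further on. Neural transcripts were most abundant in male KO replicates 6, 9 and 17. With these libraries left out, edgeR still called Hspa1a and Hspa1b between the KO sexes. Hspb1 was then not called (1.14 ± 0.35, adjusted p = 0.114), although its log2 fold change was close to the 1.16 found with every library. That fit had fewer male KO libraries, and all genes called between the KO sexes fell from 777 to 104. What ended the Hspb1 call was not tested. The part of astrocytes, oligodendrocytes and border-associated macrophages in the sex differences was not tested.

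The range of reads per UMI moved with these sex differences, since no male library was in the highest range. With the range as a covariate in edgeR, the WT comparison gave 2.62 ± 0.64 for Hspa1a (adjusted p = 0.0305) and 2.73 ± 0.72 for Hspb1 (adjusted p = 0.0460). The same fit called neither Hspa1b, at 2.16 ± 0.68 (adjusted p = 0.102), nor Dnajb1, at 0.80 ± 0.32 (adjusted p = 0.215), nor Hspe1, at -0.58 ± 0.18 (adjusted p = 0.0940), and the Hspa8 difference turned round to 0.11 ± 0.19. This fit could set the highest range against the others only among female libraries, with 1 KO library inside that range and 1 WT library outside. In KO it gave 1.91 ± 0.43 for Hspa1b (adjusted p = 0.0194) and, not called, 1.56 ± 0.45 for Hspa1a (adjusted p = 0.0642) and 1.21 ± 0.37 for Hspb1 (adjusted p = 0.0828).

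Within the middle range, the only one shared by both WT sexes, 2 male WT libraries exceeded 1 female WT library in mean log2 CPM by 2.18 for Hspa1a, 2.04 for Hspa1b, 1.76 for Hspb1 and 1.10 for Dnajb1, and differed by -0.51 for Hspe1, -0.23 for Hsp90aa1 and -0.10 for Hspa8. Male KO exceeded female KO for Hspa1a by 1.65 in the lowest range (4 libraries against 1) and 1.14 in the middle one (1 against 2), and for Hspa1b by 1.72 and 1.68. For Hspb1 these differences were 1.28 and 1.04. With all 4 libraries of the highest range left out, an alternative chosen after the data were seen, edgeR called 3 members and 818 genes in all between the KO sexes. Between the WT sexes, where 1 female WT library remained, it called 0 members and 292 genes in all, against 1892 with every library; Hspa1a then had 2.58 ± 0.89 (adjusted p = 0.138) in WT. Counted as reads in place of UMIs, neither Hspa8 between the WT sexes, at -0.20 ± 0.17 (edgeR adjusted p = 0.507), nor Hspb1 between the KO sexes, at 0.86 ± 0.49 (edgeR adjusted p = 0.330), was called. The Hspa8 call in WT was also lost in edgeR without female WT replicate 34 (adjusted p = 0.0975) or 30 (0.125), or without male WT replicate 13 (0.0703), 37 (0.0600), 10 (0.0734) or 14 (0.0600). Hsp90aa1 in WT was called lower in edgeR when any of 7 of the 18 libraries was left out, female KO replicates 33, 16, 1 and 7, female WT replicate 39, male KO replicate 17 and male WT replicate 10, with adjusted p between 0.0263 and 0.04996.

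**Figure D4:**
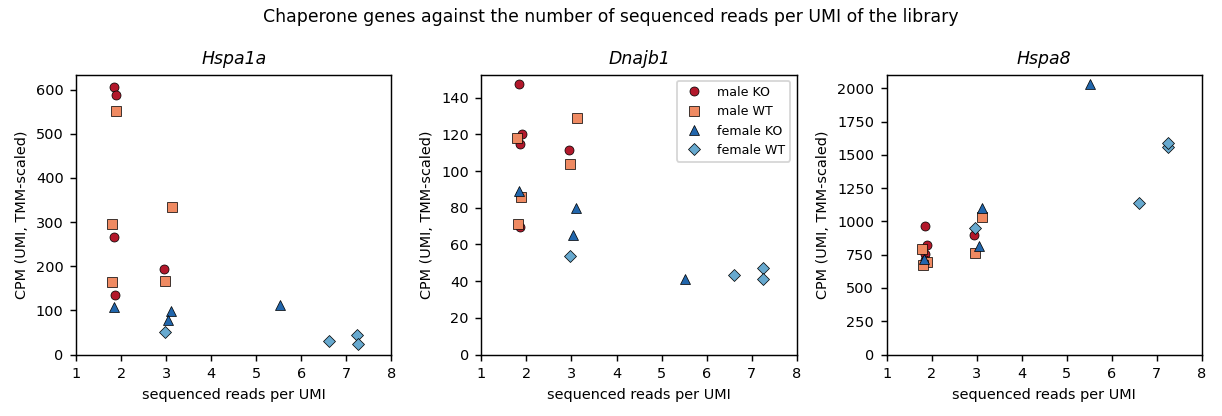
Levels in CPM of Hspa1a, Dnajb1 and Hspa8 in each library against the sequenced reads per UMI of that library, with colour and shape for the 4 groups. The libraries above 4.5 reads per UMI are 1 female KO and 3 female WT, and below that the male libraries still lie above the female ones for Hspa1a, while Hspa8 of both sexes overlaps.

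Inducible and constitutive paralogs were then compared within each library, as ratios of UMI counts that are read between libraries and not as levels of one gene against another. Hspa1a plus Hspa1b over Hspa8 had a median of 0.783 in male KO (0.444 to 1.63), 0.563 in male WT (0.402 to 1.48), 0.171 in female KO (0.0746 to 0.335) and 0.0393 in female WT libraries (0.0244 to 0.101). Every male library thus had a higher ratio of inducible to constitutive HSP70 than any female one, and the female KO and WT libraries overlapped. Within the middle range of reads per UMI the ratio was 0.485 in 1 male KO and 0.402 and 0.563 in 2 male WT libraries, against 0.171 and 0.172 in 2 female KO libraries and 0.101 in 1 female WT library. Within the highest range it was 0.0746 in 1 female KO library against 0.0244 to 0.0399 in 3 female WT libraries. The mean log2 ratio differed by 1.90 between female KO and female WT and by 0.37 between male KO and male WT, where it was 0.16 without male KO replicate 6 and 0.13 without male KO replicate 40. With any 1 of the 10 male libraries left out, the male value lay between 0.13 and 0.67.

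Cytosolic HSP90 went the opposite way between the sexes. Hsp90aa1 over Hsp90ab1 had a median of 0.0461 in male KO (0.0290 to 0.0513), 0.0459 in male WT (0.0236 to 0.0513), 0.0616 in female KO (0.0557 to 0.0916) and 0.0609 in female WT libraries (0.0515 to 0.0891). In UMI counts the male libraries lay under the female ones of the same genotype, in WT by a narrow margin, and the KO and WT libraries of each sex overlapped. In the middle range of reads per UMI it was 0.0469 in the male KO and 0.0459 and 0.0491 in the male WT libraries, against 0.0675 and 0.0916 in the female KO libraries and 0.0515 in the female WT library. For the mitochondrial pair, Hspd1 over Hspe1 had a median of 0.432 in male KO (0.389 to 0.505), 0.449 in male WT (0.421 to 0.487), 0.284 in female KO (0.247 to 0.350) and 0.267 in female WT libraries (0.155 to 0.293). In UMI counts every male library was above every female one in this ratio, and the genotypes overlapped in both sexes. Read counts gave another picture for both ratios. In reads Hsp90aa1 over Hsp90ab1 overlapped between male WT (0.0224 to 0.0523) and female WT libraries (0.0345 to 0.0608). Hspd1 over Hspe1 in reads overlapped between male KO (0.405 to 0.562) and female KO libraries (0.327 to 0.411), and female KO libraries lay wholly above female WT ones (0.152 to 0.283). In the middle range the UMI ratio of Hspd1 over Hspe1 was 0.420 in the male KO and 0.421 and 0.470 in the male WT libraries, against 0.277 and 0.291 in the female KO libraries and 0.290 in the female WT library.

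**Figure D5:**
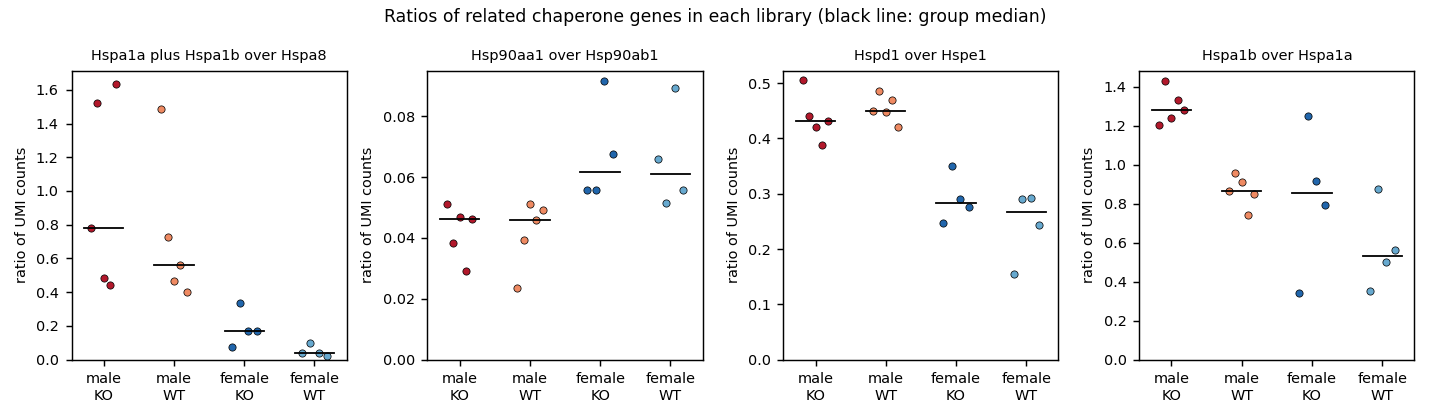
Ratios of UMI counts of related chaperone genes, 1 point per library, with the group median as a black line. The first ratio and that of Hspd1 over Hspe1 are higher in all male than in all female libraries, Hsp90aa1 over Hsp90ab1 is lower in males, and Hspa1b over Hspa1a is 1.20 to 1.43 in male KO against 0.743 to 0.958 in male WT libraries.

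The neighbouring copies Hspa1b and Hspa1a did not keep a fixed proportion between male KO and male WT libraries. This ratio was singled out after its values were seen and carries no test. How often ratios of other genes separate the groups was not counted, for this ratio or those above. Hspa1b over Hspa1a lay between 1.20 and 1.43 in the 5 male KO libraries (median 1.28) and between 0.743 and 0.958 in the 5 male WT libraries (median 0.863), with no overlap. The separation was present within the lowest range of reads per UMI, at 1.20 to 1.43 in 4 male KO against 0.863 to 0.958 in 3 male WT libraries, and in the middle range, at 1.24 in 1 male KO against 0.743 and 0.850 in 2 male WT libraries. It was present in the read counts too, with 1.10 to 1.31 for male KO libraries against 0.666 to 0.825 for male WT libraries. In females the groups overlapped, at 0.341 to 1.25 in KO and 0.350 to 0.875 in WT libraries, some on few UMIs (15 of Hspa1b and 44 of Hspa1a in female KO replicate 33, 7 and 20 in female WT replicate 34). The mean log2 ratio differed by 0.59 between male KO and male WT, and by 0.53 to 0.63 with any 1 library of these left out. The male log2 fold changes of the single genes were 0.86 for Hspa1b and 0.25 for Hspa1a, neither called.

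The wider chaperone lists held 97 different genes tested, 19 of them in more than 1 list. With the KO few of these were called, 1 higher and 0 lower in females (1.03% and 0%, beside 0.849% and 1.83% of all genes) and 4 higher and 3 lower in males (4.12% and 3.09%, beside 3.37% and 2.87% of all genes). In females, 1 of 34 DNAJ genes tested, Dnajc4, rose, by 0.71 ± 0.16 on the log2 scale (edgeR adjusted p = 0.0236), to 99.005 ± 29.0 CPM in female KO against 57.1 ± 6.68 CPM in female WT (SD, n = 4 each). The difference in mean log2 CPM was 0.35 within the middle range of reads per UMI and 1.37 within the highest. With the female libraries fitted alone, edgeR called 0 genes of all those tested, and Dnajc4 had 0.77 ± 0.22 (edgeR adjusted p = 0.234). It was not called either without the highest range (0.40 ± 0.20, edgeR adjusted p = 0.408), in read counts (edgeR adjusted p = 0.0588), without female KO replicate 7 (edgeR adjusted p = 0.0516) or without female WT replicate 30 (edgeR adjusted p = 0.0944). No gene was called among 7 other HSP70 genes, 2 other HSP90 genes, 4 small heat shock proteins, 8 subunits of the TRiC chaperonin, 22 cochaperones, 14 other genes associated with Hsf1, 11 mitochondrial chaperones and proteases and 15 chaperones of the endoplasmic reticulum (edgeR). The medians of these lists lay between -0.33 and 0.18 on the log2 scale, beside 0.01 over all genes.

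In males Dnajc4 rose as well, by 0.59 ± 0.13 (edgeR adjusted p = 0.00564), to 95.9 ± 9.23 CPM in male KO against 64.1 ± 6.90 CPM in male WT (SD, n = 5 each). Stip1, which links HSP70 to HSP90, rose by 0.51 ± 0.15 (edgeR adjusted p = 0.0438), and Hspbp1, a nucleotide exchange factor of HSP70, fell by 0.59 ± 0.12 (edgeR adjusted p = 0.00318). Cryab, the small heat shock protein alpha B-crystallin, rose by 1.40 ± 0.37 (edgeR adjusted p = 0.0253), to 12.9 ± 5.54 CPM in male KO against 4.62 ± 2.48 CPM in male WT (SD, n = 5 each). Summed markers of other brain cells moved with the male genotype. The sum of 8 oligodendrocyte lineage markers was 302 to 874 CPM in male KO (Pdgfra at 0) against 173 to 228 CPM in male WT (Mog at 0). That of 8 astrocyte markers was 283 to 587 CPM in male KO against 141 to 199 CPM in male WT (Gja1 at 0), and that of 8 neuron markers 69.9 to 330 CPM in male KO against 13.2 to 37.8 CPM in male WT. That of 8 markers of border-associated macrophages was 157 to 251 CPM in male KO against 29.97 to 57.8 CPM in male WT. Dnajc18 (-0.50 ± 0.13), the mitochondrial protease gene Yme1l1 (-1.22 ± 0.30) and the endoplasmic reticulum gene Creld2 (0.63 ± 0.12) completed the calls of the chaperone lists in males (edgeR). Stip1 and Cryab also stand in the list of genes associated with Hsf1. Within the lowest and the middle range of reads per UMI, the 7 genes kept their direction. The differences were 0.52 and 0.55 for Dnajc4, 0.46 and 0.57 for Stip1, -0.60 and -0.47 for Hspbp1 and 1.72 and 1.20 for Cryab. They were -0.57 and -0.49 for Dnajc18 and 0.54 and 0.82 for Creld2. For Yme1l1 the difference was -1.38 in the lowest range and only -0.30 in the middle one. Without male KO replicates 6, 9 and 17, 1 of the 7 was called (edgeR), Hspbp1, and 196 genes in all, against 683; Cryab then had 0.61 ± 0.42 (edgeR adjusted p = 0.654), Stip1 0.33 ± 0.18 (edgeR adjusted p = 0.509) and Dnajc4 0.59 ± 0.17 (edgeR adjusted p = 0.0930). In read counts 1 of the 7 was called in males, Creld2 (edgeR). Single libraries ended some of these calls in edgeR, with adjusted p between 0.0513 and 0.161. Stip1 was not called without male KO replicate 36, 6, 9 or 17 or male WT replicate 13, 10, 11 or 14, and Cryab not without male KO replicate 6, 9 or 17 or male WT replicate 13 or 37. Dnajc18 was not called without male KO replicate 6, 9, 17 or 40 or male WT replicate 13, 37 or 10, and Yme1l1 not without male WT replicate 10. The other HSP70, other HSP90 and TRiC lists had none (edgeR). Hsf1 itself averaged 150 ± 11.8 CPM in male KO, 149 ± 12.9 CPM in male WT, 134 ± 6.85 CPM in female KO and 124 ± 32.4 CPM in female WT (SD, n = 5, 5, 4 and 4), and neither it nor Hsbp1, an Hsf1 binding protein, was called in any comparison (edgeR).

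Between the sexes, of the 97 genes of these lists, 11 were higher and 1 was lower in male WT (11.3% and 1.03%, beside 6.94% and 10.3% of all genes; edgeR). In KO 8 were higher and 0 lower in males (8.25% and 0%, beside 2.83% and 4.27% of all genes; edgeR). The WT calls, counted in every list that holds the gene, were higher for 3 of 34 DNAJ genes, 3 of 22 cochaperones, 2 of 7 other HSP70 genes, 3 of 14 genes associated with Hsf1, 2 of 11 mitochondrial genes and 2 of 15 genes of the endoplasmic reticulum. The lower one was Canx, which encodes calnexin (-0.49 ± 0.15, edgeR adjusted p = 0.0318), named after its values were seen. Its call was lost without female WT replicate 34, 39 or 30 or male WT replicate 13, 10 or 14 (edgeR adjusted p between 0.0604 and 0.144). The other HSP90, small heat shock protein and TRiC lists had no call in WT (edgeR), and the list medians lay between -0.30 and 0.56 on the log2 scale, with 0.12 over the 97 genes. With the range as a covariate the WT counts were 2 higher and 1 lower, where 271 genes in all were called, against 1892 (edgeR). Without male KO replicates 6, 9 and 17, 0 of the 97 were called between the KO sexes, where all genes called fell from 777 to 104 (edgeR).

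Immediate early genes are transcribed within minutes of a stimulus. The list examined held 27 genes of the immediate early and dissociation responses, called immediate early genes here for short. All were detected, and they summed to 8978 to 10082 CPM in male KO and 8194 to 11697 CPM in male WT libraries. The female sums were 4646 to 8772 CPM in KO and 3139 to 4177 CPM in WT libraries, the same order of the female groups as for Hspa1a. The median log2 fold change of the 24 tested was 0.50 with the KO in females and -0.05 in males. The 6 inducible chaperones had medians of 1.04 in females (0.02 to 1.99) and 0.45 in males (0.06 to 0.86). In the female KO comparison, 5 of 24 rose and none fell (0.849% and 1.83% of all genes), among them Jun (1.21 ± 0.18, edgeR adjusted p = 0.00264), Egr1 (1.12 ± 0.21, edgeR adjusted p = 0.00829), Jund (0.93 ± 0.18, edgeR adjusted p = 0.00986) and Zfp36 (1.29 ± 0.27, edgeR adjusted p = 0.0127). Within the middle and the highest range of reads per UMI these 4 differed by 0.56 to 1.17 and by 0.78 to 0.88 in mean log2 CPM. In edgeR 0 of the list were called with the female libraries fitted alone, where 0 genes in all were called. With the range as a covariate 1 was called, and 100 genes in all, against 293 (edgeR). In the male KO comparison 1 of 24 rose, Atf3 (0.52 ± 0.15, edgeR adjusted p = 0.0344; 3.37% of all genes); it was not called without male KO replicates 6, 9 and 17 together (edgeR adjusted p = 0.466). Leaving out male KO replicate 9, 17 or 40 or male WT replicate 13, 37, 11 or 14 alone also ended this call (edgeR adjusted p between 0.0556 and 0.112). The KO effect was larger in females for 3 of 24 (edgeR), Jun, Socs3 and Egr1, named after their values were seen, and for 0 with the range as a covariate. Most single libraries left out also ended these calls (edgeR adjusted p up to 0.109). No gene of the chaperone lists was called in that comparison (edgeR; 0.237% of all genes). Male WT exceeded female WT for 14 of 24 and was lower for 2 (6.94% and 10.3% of all genes), and male KO exceeded female KO for 4 and was lower for 1 (2.83% and 4.27% of all genes; edgeR). With the range as a covariate these counts were 9 and 0 in WT and 1 and 1 in KO, where 271 and 326 genes in all were called (edgeR). Markers of blood cells varied by type. The sum of 5 erythroid markers overlapped, at 104 to 421 CPM in male KO and 54.7 to 314 CPM in female KO. In WT it was 3.47 to 177 CPM in males and 2.72 to 230 CPM in females. That of 6 lymphocyte markers lay between 0.488 and 3.49 CPM in every group. Neutrophil and monocyte markers differed the other way from the immediate early genes. The sum of 10 neutrophil markers was 330.1 to 638 CPM in male KO, 315 to 1158 CPM in male WT, 1005 to 5358 CPM in female KO and 2174 to 15886 CPM in female WT libraries. That of 8 monocyte markers was 49.4 to 106 CPM in male KO, 53.8 to 86.5 CPM in male WT, 133 to 207 CPM in female KO and 216 to 731 CPM in female WT libraries, where Vcan was at 0. The part of these cells and of the immediate early response in the chaperone values was not tested.

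The profiles nearest to Hspa1a, Hspa8 and Hsp90aa1 over the 18 libraries were searched among 6872 genes of sufficient level. The measure was the mean absolute difference of log2 CPM after centring each gene. The other members, the mitochondrial pair included, were not searched for. Nearest to Hspa1a were Hspa1b (0.46), Mgat2 (0.57), Zfp36l1 (0.66), Hspb1 (0.67) and Jun (0.69), where the median gene differed by 1.13. Nearest to the constitutive Hspa8 were Tuba1b (0.14), Rps26 (0.17), Aff1 (0.18), Bfar (0.18) and Atox1 (0.18), with a median of 0.42 over all genes. Nearest to Hsp90aa1 were Cog7 (0.24), Rp9 (0.25), Rassf2 (0.25), Crebbp (0.25) and Uqcrh (0.25), with a median of 0.45. Another member of the set was thus among the nearest 5 for Hspa1a, by both Hspa1b and Hspb1, and for neither Hspa8 nor Hsp90aa1.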

How the data were processed

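Bulk MARS-seq libraries of purified mouse microglia started from 30 ng of RNA each, per the labels' protocols. Pool membership of the samples is unstated. Whole-number counts per gene were deposited by the authors, reads before UMI correction and UMI-corrected counts, neither scaled for depth. Cutadapt, STAR, HTSeq and the build mm10 are named in the submitters' processing notes. The sources used here do not give their versions, the strand setting or how UMIs were corrected. Without a known strand setting, reads of the overlapping 5' ends of Hspd1 and Hspe1, and of Hspa1a and the antisense gene Gm20481 (0 to 2 UMIs per library), may be shared. Each table held 16 further columns that match no sample used here and were left out.

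Of 55414 identifiers, 52081 received symbols and coordinates from GENCODE M21 (GRCm38, the assembly of mm10). UMI-corrected counts were the main measurement, with 435838 to 9149144 UMIs and 2405764 to 17313836 reads per library. Floors computed from them cover counting error alone. The filterByExpr filter, by group, kept 10948 genes and all 10 members. After TMM scaling, edgeR 4.0.16 (R 4.3.3) fitted a quasi-likelihood model to the 18 libraries together, with a mean for each group and a common biological coefficient of variation of 17.8%. A gene was called at a two-sided Benjamini-Hochberg adjusted p under 0.05 over all genes, with no minimum fold. The SE was the log2 fold change divided by the square root of F. The procedure was tested on simulated data. CPM of genes were scaled by TMM, and summed markers by library total. Mean log2 CPM within ranges used a prior count of 2. All-gene medians of the 5 contrasts lay between -0.02 and 0.01.

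All 10 members are named. Of each wider list up to 4 called genes of lowest p in the KO comparisons are named, and nearest profiles were limited to a mean log2 CPM of at least 4. The members and lists were chosen with earlier results of these data known. Alternatives were read counts, RLE scaling, DESeq2 1.42.0, no filter, single contrasts, the reads-per-UMI range (split at 2.4 and 4.5) as covariate, Hspa1a and Hspa1b summed, subsets of libraries, and leaving out each library in turn; the named genes of the wider lists were refitted the same way, a choice made after the data were seen. The comparisons of KO with WT and of male with female share groups.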

Additional observations from a re-analysis of the deposited data

Results flagged for a closer look

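In 52 sets of values (10 genes and 3 ratios in 4 groups), a library was singled out where the gap to its nearest neighbour took most of the group's range (Dixon's test at the 95% level), which chance gives in about 1 of 20. There were 4 such values. Hspa1b was highest in female WT replicate 39, at 44.8 CPM against 13.9 to 15.7 CPM in the other 3; this was the 1 female WT library in the middle range of reads per UMI. In the same library Hsph1 was lowest, at 25.6 CPM against 38.1 to 38.8 CPM. Hsp90ab1 was highest in male KO replicate 6, at 1239 CPM against 762 to 830.4 CPM in the other 4, and Hsp90aa1 was lowest in male WT replicate 13, at 19.8 CPM against 37.3 to 44.0 CPM, the male WT library with the most Hspa1a and Hspa1b.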

How the results depend on the processing

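No paired analysis was possible because every library has its own replicate number. Members called in females, 1 as reported, numbered 4 with no filter and 2 without male KO replicates 6, 9 and 17 (most neural transcripts). They numbered 0 with the contrast's libraries alone, with the range covariate, without female KO replicate 33 and female WT replicate 34 (the shallowest), and without the highest range; leaving out 1 library gave 0 to 2. In males, 0 became 3 with no filter, and for the difference between the sexes, 0 became 2. Between the KO sexes, 3 became 6 with no filter and 1 with the covariate (1 to 5 leaving out 1 library). Between the WT sexes, 6 became 2 with the covariate and 0 without the highest range (5 to 7 leaving out 1 library). DESeq2 called 4 members between the KO sexes and 7 between the WT sexes, and edgeR on the WT libraries alone 7. All genes called numbered 293, 683, 26, 777 and 1892 in the 5 contrasts, and 71 to 680, 484 to 945, 2 to 84, 207 to 1782 and 1092 to 2430 leaving out 1 library. In females all genes called numbered 0 with the contrast's libraries alone, 100 with the covariate, 104 without the highest range, 136 in reads, 462 without the shallowest libraries and 532 with no filter. In males they numbered 196 without male KO replicates 6, 9 and 17, 222 in reads, 1145 with male libraries alone and 1209 without the highest range. For the difference between the sexes they numbered 1 without those 3 libraries, 10 in reads, 83 by DESeq2 and 238 with no filter. Between the KO sexes they numbered 104 without those 3, 235 with KO libraries alone, 312 in reads, 326 with the covariate and 1354 with no filter. Between the WT sexes they numbered 271 with the covariate, 292 without the highest range and 1188 in reads.

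Over 28 alternatives (27 for the difference between the sexes), 49 of 1390 log2 fold changes of members turned sign, in 18 of 50 results, and the cause was not tested. Of these 1 had been called, Hspa8 between the WT sexes, at 0.11 with the covariate. With read counts, KO against WT in females gave 0.090 for Hspa8, 0.057 for Hsp90ab1 and 0.51 for Hspd1, and a Hspd1 over Hspe1 log2 ratio of 0.63 against 0.28 in UMIs. The difference between the sexes gave 0.34 for Hsp90aa1, 0.032 for Hsp90ab1 and 0.19 for Hspd1 with read counts. Hsp90ab1 was -0.12 between the KO sexes and Hsph1 -0.18 between the WT sexes. With no filter, Hspd1 in females was 0.026, Hsp90aa1 for the difference between the sexes 0.026 and Hsp90ab1 between the WT sexes 0.0071. With the covariate, Hspa8 was 0.24 in females, 0.10 for the difference between the sexes and 0.010 between the KO sexes, and Hsp90aa1 was 0.085 for that difference. Without the shallowest libraries, Hsp90aa1 was 0.041 for that difference and Hspd1 -0.023 between the WT sexes. Without male KO replicates 6, 9 and 17, Hsp90ab1 was -0.11 in males, 0.033 for the difference and -0.11 between the KO sexes. Without the highest range, the difference was 0.36 for Hsp90aa1 and 0.016 for Hsph1.

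Leaving out 1 library, values in females ran from -0.57 to 0.0071 for Hspa8, -0.31 to 0.18 for Hsp90aa1, -0.20 to 0.034 for Hsp90ab1 and -0.14 to 0.11 for Hspd1. In males they ran from -0.018 to 0.59 for Hspa1a, -0.092 to 0.19 for Hsp90aa1 and -0.10 to 0.10 for Hsp90ab1. The difference between the sexes ran from -0.37 to 0.12 for Hsp90aa1 and -0.24 to 0.0072 for Hsp90ab1. Hsp90ab1 ran from -0.12 to 0.13 between the KO sexes, and between the WT sexes Hsph1 ran from -0.12 to 0.22 and Hspd1 from -0.028 to 0.22.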
